A study of Mus musculus with 10 samples.

Results

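Tubulins are the proteins from which cells build microtubules, and 9 genes of this family were described across the 10 mouse RNA-seq libraries of the series. The genes were taken by symbol from each library's table. They were the alpha isotypes Tuba1a, Tuba1b, Tuba1c and Tuba4a and the beta isotypes Tubb2a, Tubb2b, Tubb3, Tubb5 and Tubb6. These are 9 of the 19025 genes that the tables hold, and each stood in 1 row of every table, so no choice between rows was needed.

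An alpha and a beta tubulin join into a dimer, and dimers add to and leave the ends of microtubules, which carry cargo and form the mitotic spindle. Cells make several isotypes of each kind, which differ mostly at their acidic tails and in the tissues that use them. Unassembled tubulin also lowers tubulin mRNA, because the protein TTC5 recognises the first residues of a new tubulin chain on the ribosome and starts the decay of its message. Activated lymphocytes enlarge and divide, while resting splenic lymphocytes hold little cytoplasm.

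The series profiled C57BL/6 mouse cells in 5 groups of 2 libraries, made from total RNA, as part of work on Polycomb and Trithorax complexes in T lymphocytes. The TSA-treated Th2 group was splenic CD4 T cells cultured for 5 days with 15 ng/ml IL-2 and 10 ng/ml IL-4, with 10 nM trichostatin A (TSA) added on day 2 and kept for the last 3 days. The untreated Th2 group had the same culture without TSA, which is an inhibitor of histone deacetylases and also of the tubulin deacetylase HDAC6. The CD4 T and B groups were splenic cells taken with magnetic beads, B cells by B220, and the ES group was the line B6N-22 grown with leukemia inhibitory factor on mitomycin C-treated embryonic fibroblasts. The sorted cells were stated to be over 98% pure, from mice of 6 to 8 weeks. Whether the libraries of a group stem from separate mice or cultures is not in the labels, and the spread between them, which is what p-values here measure, may be technical.

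All levels are in FPKM, fragments scaled by transcript length and by the library's mapped fragments, so that levels of different genes can be compared. Between 9652 and 11456 genes per library reached 1 FPKM. The SD of the log2 ratio between the libraries of a pair was 0.322 for TSA-treated Th2, 0.307 for untreated Th2, 0.046 for CD4 T, 0.045 for B and 0.042 for ES cells. In the last 3 pairs the spread changed with level as read sampling would. The depth it implied varied 1.09-fold, 1.15-fold and 1.34-fold from low to high genes, against 9.63-fold and 8.72-fold in the Th2 pairs. This check is indirect, since read numbers are not given. Each of the 3 near-identical pairs was therefore counted as 1 sample. The 4 Th2 tables repeat 1 value for every row of a symbol, while at most 9.5% of such symbols had identical rows in the other 6 tables, so the tables are of 2 kinds. The kind of table and the difference between Th2 and the other cells cannot be told apart. T cell markers summed to at least 1109 FPKM in every Th2 and CD4 T library and to at most 24.9 FPKM in B and ES libraries. B cell markers summed to 4339 and 4342 FPKM in the B libraries and pluripotency markers to 2329 and 2331 FPKM in the ES libraries. B cell markers summed to 4.47 and 6.53 FPKM in untreated Th2, against 250.3 and 254.7 FPKM in CD4 T libraries, and myeloid markers to 9.27 and 9.34 FPKM in untreated Th2, against 496.3 and 490.4 FPKM in CD4 T libraries.

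The 3 Tuba1 genes lie together on mouse chromosome 15 and are near-identical copies. On GRCm38 with GENCODE M21, Tuba1b lies at chr15:98931425-98934565 and Tuba1a at chr15:98949837-98953703, both on the minus strand, and Tuba1c at chr15:99029891-99038110 on the plus strand. Their coding sequences are 97.1% to 98.3% identical. Of all 50-base stretches of the transcript, 72.9% in Tuba1a, 73.8% in Tuba1b and 61.0% in Tuba1c also occur in another gene. Tuba4a, at chr1:75214228-75219865 on the minus strand, shares 1.11% of its stretches. Its coding identity with the Tuba1 genes is 84.8% to 85.3%.

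The ends of the Tuba1c and Tuba4a coding sequences are shown because they hold the codon that sets Tuba4a apart. Each line gives the last 45 coding bases at the stated GRCm38 position, followed by the stop codon, with the last codon in capitals. The last codon of the Tuba1 genes encodes tyrosine, the residue that carboxypeptidases remove and tubulin tyrosine ligase puts back, whereas Tuba4a ends in glutamate.
Tuba1c, chr15:99037962-99038006, plus strand: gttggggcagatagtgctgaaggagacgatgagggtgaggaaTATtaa
Tuba4a, chr1:75215625-75215669, minus strand: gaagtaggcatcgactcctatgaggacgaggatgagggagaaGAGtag

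Among the beta genes, Tubb2a, at chr13:34074274-34078007, and Tubb2b, at chr13:34126748-34130466, are neighbours on the minus strand with 96.5% coding identity. They share 49.6% and 39.3% of their transcript stretches with other genes. Tubb3, at chr8:123411424-123422015 on the plus strand, Tubb5, at chr17:35833921-35838306 on the minus strand, and Tubb6 are nearly free of such stretches, with 0%, 0.12% and 0%. Other pairs of beta genes are 80.3% to 86.0% identical in their coding sequence, and alpha and beta genes 55.9% to 58.4%. All 9 genes have 4 exons and between 444 and 451 codons.

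The starts of 3 beta coding sequences, the first 36 bases each, are shown because their first 4 codons, in capitals, encode the residues that TTC5 reads on the ribosome.
Tubb2a, chr13:34077894-34077929, minus strand: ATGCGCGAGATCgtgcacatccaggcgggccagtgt
Tubb2b, chr13:34130198-34130233, minus strand: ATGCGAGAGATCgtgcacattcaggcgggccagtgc
Tubb5, chr17:35838018-35838053, minus strand: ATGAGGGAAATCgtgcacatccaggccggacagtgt

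**Figure D1:**
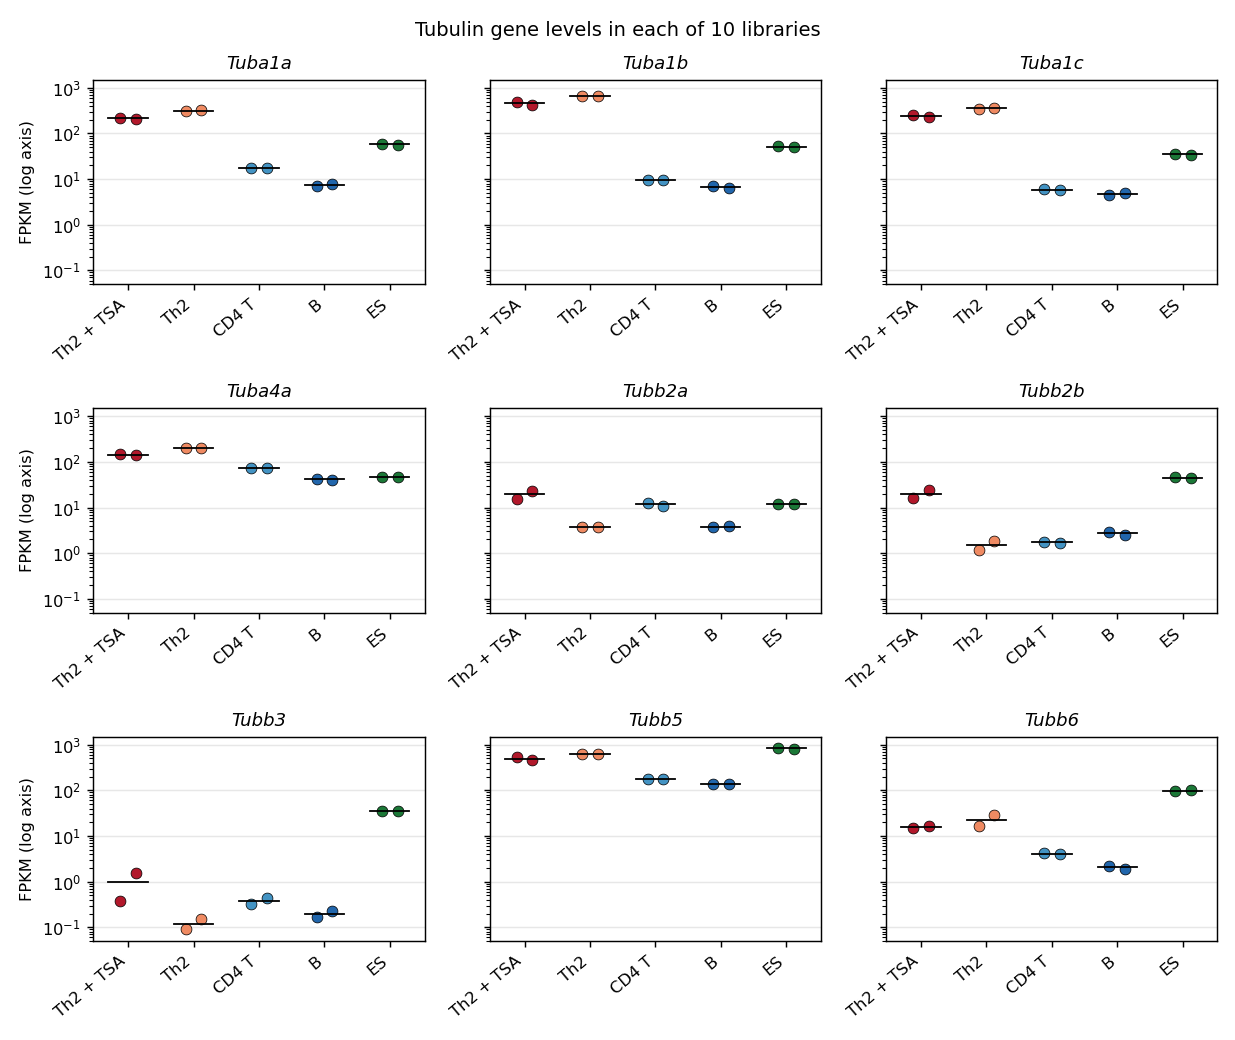
Level of each of the 9 tubulin genes in FPKM, on a log axis, in the 10 libraries; points are libraries and bars are the means of the 2 libraries of a group. The Tuba1 genes stand highest in the Th2 groups, Tubb3 and Tubb6 in ES cells, and Tubb2a and Tubb2b are higher in TSA-treated than in untreated Th2 cells.

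Alpha tubulin mRNA was far higher in both Th2 groups than in freshly sorted lymphocytes. The 4 alpha genes summed to 1100 and 1002 FPKM in TSA-treated Th2, 1506 and 1556 FPKM in untreated Th2, 105.7 and 105.2 FPKM in CD4 T, 60.0 and 59.7 FPKM in B and 192.4 and 189.7 FPKM in ES libraries. The 5 beta genes summed to 581.8 and 521.4 FPKM in TSA-treated Th2, 643.5 and 652.3 FPKM in untreated Th2, 199.1 and 198.1 FPKM in CD4 T, 143.7 and 143.8 FPKM in B and 1016 FPKM in both ES libraries. The alpha sum over the beta sum was thus 1.89 and 1.92 in TSA-treated Th2, 2.34 and 2.39 in untreated Th2, 0.531 in both CD4 T, 0.418 and 0.415 in B, and 0.189 and 0.187 in ES libraries. No group overlapped another in this ratio, and it was above 1 only in the Th2 tables, where most of the alpha sum came from the Tuba1 copies. These copies also made up most of the alpha sum in ES libraries, with 145.7 of 192.4 and 142.4 of 189.7 FPKM. The ratio of Tubb5 to Tuba4a, both almost free of shared stretches, was 3.55 and 3.27 in TSA-treated and 3.04 and 3.02 in untreated Th2. This second ratio was 2.465 and 2.509 in CD4 T, 3.225 and 3.306 in B and 17.8 and 17.4 in ES libraries.

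**Figure D2:**
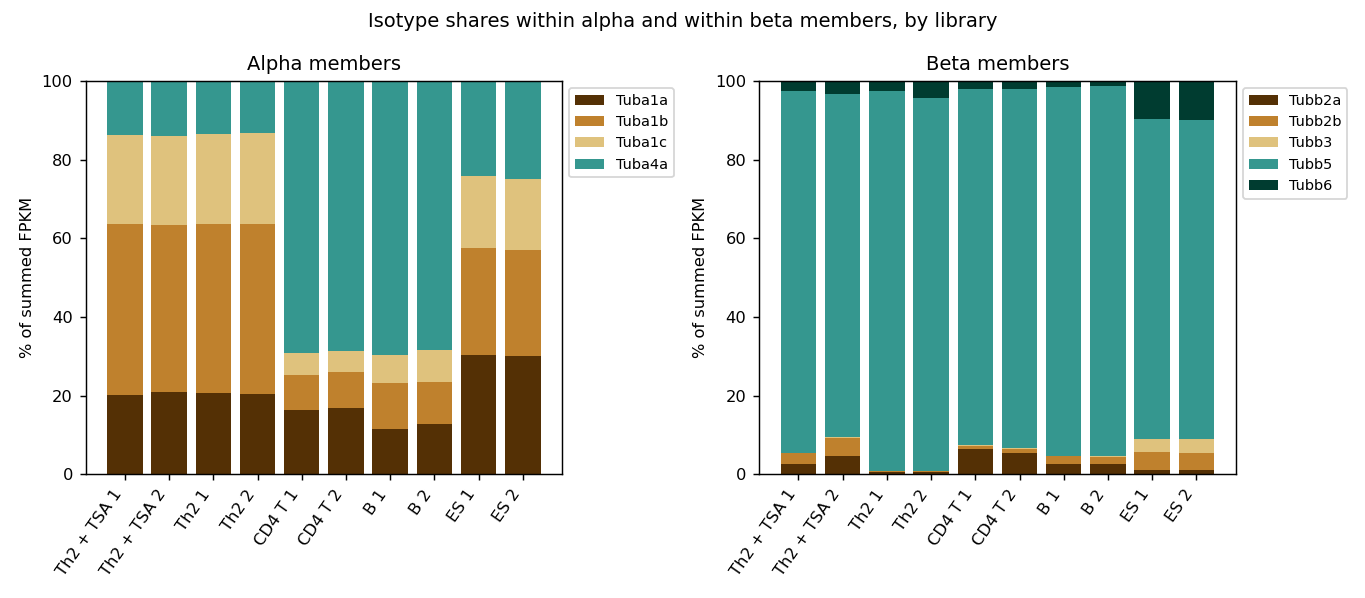
Share of each isotype, in percent of the summed FPKM of the 4 alpha members (left) and of the 5 beta members (right), in each library. Tuba4a makes up 13.2% to 13.9% of the alpha sum in the Th2 libraries and 68.5% to 69.6% in CD4 T and B libraries, while Tubb5 makes up most of the beta sum everywhere.

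The makeup of the alpha pool differed between the cells. Tuba4a held 13.7% and 13.9% of the alpha sum in TSA-treated Th2, 13.6% and 13.2% in untreated Th2, 69.2% and 68.6% in CD4 T, 69.6% and 68.5% in B and 24.2% and 24.9% in ES libraries. By these values it was the leading alpha isotype in the sorted lymphocytes, where the 2 cell types overlapped. The other alpha members are the Tuba1 copies, and how reads of their shared stretches were handled is not known for either kind of table. The part of this in the alpha shares was not tested. Tuba1b held 43.6% and 42.5% in TSA-treated and 42.8% and 43.2% in untreated Th2 libraries, so the 2 Th2 groups did not separate. Among the 5 beta members Tubb5 led in all 10 libraries, with 92.0% and 87.4% in TSA-treated Th2, 96.6% and 94.7% in untreated Th2, 90.6% and 91.4% in CD4 T, 93.7% and 94.0% in B and 81.4% and 81.1% in ES libraries. These shares and the beta sums above leave out Tubb4b, a beta gene that is not a member. Tubb4b had 180.3 and 155.4 FPKM in TSA-treated and 242.5 and 247.1 FPKM in untreated Th2 libraries. It had 28.0 and 27.7 FPKM in CD4 T, 30.3 and 30.8 FPKM in B and 141.7 and 140.9 FPKM in ES libraries.

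Within untreated Th2 libraries the order of levels was Tuba1b, Tubb5, Tuba1c, Tuba1a, Tuba4a, Tubb6, Tubb2a, Tubb2b and Tubb3, and no neighbours overlapped. In TSA-treated Th2 libraries Tubb5 and Tuba1b overlapped at the top, and Tubb2b, Tubb2a and Tubb6 overlapped below Tuba4a. CD4 T and B cells began with Tubb5 and Tuba4a. Tuba1a came next in CD4 T cells, whereas Tuba1a and Tuba1b overlapped in B cells. ES cells began with Tubb5 and Tubb6, and there Tubb3 and Tuba1c overlapped.

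The comparison of TSA-treated with untreated Th2 cultures asks what a histone deacetylase inhibitor does to gene expression in these cells. In it the beta genes Tubb2a and Tubb2b rose, and the alpha genes Tuba1a, Tuba1c and Tuba4a fell, by limma with Benjamini-Hochberg adjustment over 12907 genes at an adjusted p of 0.05. These were 5 of 9 members, but Tubb2a with Tubb2b, and Tuba1a with Tuba1c, are near-identical copies and not separate evidence. Sums of the copies are given below. Of all genes tested, 13.4% were called, 9.26% higher and 4.14% lower in treated cultures, and the median log2 change was 0.02. These were 1195 higher and 534 lower calls, against 1125 and 1027 under quantile normalization. The alpha members had a median log2 change of -0.54 and the beta members of 0.74. This beta median is the value of Tubb3, which was not called and had at most 1.56 FPKM in these libraries. The beta sum, mostly Tubb5, was lower in each treated library than in any untreated one.

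Tubb2b, a beta isotype best known from developing neurons, had 15.9 and 24.0 FPKM in TSA-treated Th2 libraries, against 1.18 and 1.84 FPKM in untreated ones. The groups did not overlap, and the means differed 13.2-fold. On the log2(FPKM + 1) scale, which understates changes of low genes, the change was 3.05 (SE 0.28, n = 2 libraries each, limma adjusted p = 0.03267), the rank 24 among 12907 genes by size. Its neighbour Tubb2a, which is also abundant in brain, had 15.4 and 23.6 FPKM in TSA-treated libraries, against 3.67 and 3.69 FPKM in untreated ones. It too did not overlap, with a log2 change of 2.10 (SE 0.25, limma adjusted p = 0.03754) and a 5.30-fold difference of means. Libraries that do not overlap, higher in treated cells, were found in 36.7% of all genes. Because reads from the shared stretches of these copies could be split between them, their sum was also fitted. The sum averaged 39.5 FPKM in TSA-treated and 5.19 FPKM in untreated cultures, a log2 change of 2.68 (SE 0.25, limma adjusted p = 0.03276).

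Tuba1a, an alpha isotype required in migrating neurons, had 222.1 and 209.9 FPKM in TSA-treated libraries, against 312.9 and 319.4 FPKM in untreated ones. It fell by 0.55 on the log2 scale (SE 0.062, limma adjusted p = 0.03602). Tuba1c had 247.8 and 226.8 FPKM in TSA-treated libraries, against 344.2 and 359.4 FPKM in untreated ones, a log2 change of -0.57 (SE 0.076, limma adjusted p = 0.04203). Both genes were lower in each treated library than in any untreated one, which held for 27.1% of all genes. Tuba4a, which shares almost no stretch with other genes, had 150.8 and 139.3 FPKM in TSA-treated libraries, against 204.7 FPKM in both untreated ones. Its log2 change was -0.50 (SE 0.069, limma adjusted p = 0.04388), close in size to those of the copies.

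Tuba1b, the most abundant alpha isotype of the cultures, had 479.5 and 426.5 FPKM in TSA-treated libraries, against 644.0 and 672.8 FPKM in untreated ones. Its libraries did not overlap, but its log2 change of -0.54 (SE 0.089) missed the threshold with a limma adjusted p of 0.05291. The sum of the 3 Tuba1 genes averaged 906.3 FPKM in TSA-treated and 1326 FPKM in untreated cultures, with a log2 change of -0.55 and a limma adjusted p of 0.05084.

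Tubb5, the common beta isotype of dividing cells, had 535.4 and 455.7 FPKM in TSA-treated libraries, against 621.8 and 617.6 FPKM in untreated ones. The treated libraries were the lower ones, but the log2 change of -0.33 (SE 0.12) did not pass (limma adjusted p = 0.162). Tubb6, a broadly expressed beta isotype, had 14.7 and 16.6 FPKM in TSA-treated libraries, against 16.8 and 29.0 FPKM in untreated ones, which lie apart from each other (log2 change -0.47, limma adjusted p = 0.3652). Tubb3, the isotype used as a marker of neurons, had 0.37 and 1.56 FPKM in TSA-treated libraries, against 0.09 and 0.15 FPKM in untreated ones, and its log2 change of 0.74 did not pass (limma adjusted p = 0.2448).

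**Figure D3:**
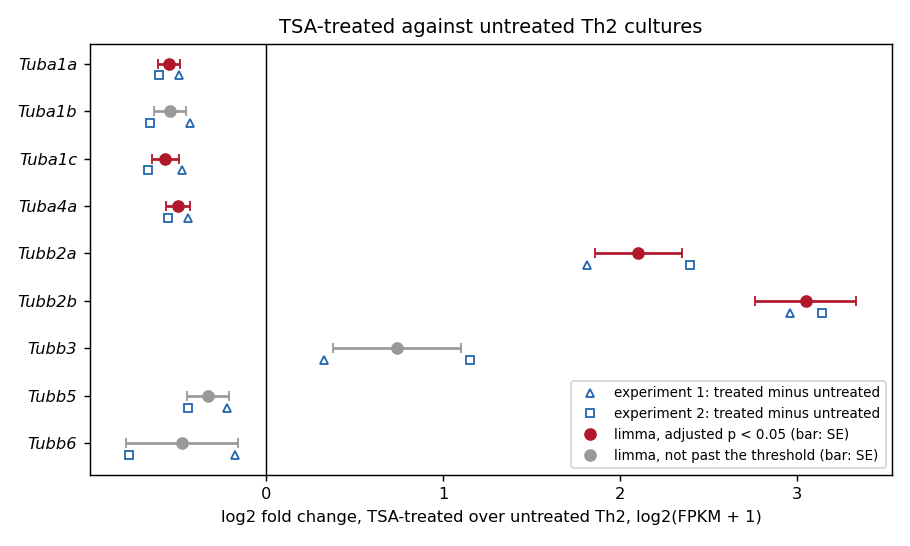
Log2 fold change, TSA-treated over untreated Th2, on the log2(FPKM + 1) scale for each tubulin gene; circles with SE bars are the limma estimates, triangles and squares the differences between libraries of the same experiment number. Tubb2b at 3.05 and Tubb2a at 2.10 lie to the right, and the 4 alpha genes lie between -0.57 and -0.50.

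These calls rest on all 4 Th2 libraries. Without TSA-treated library 1 or 2, or without untreated library 1 or 2, no member was called. Limma adjusted p values of the 5 called genes then ranged from 0.05496 for Tubb2a without treated library 1 to 0.2326 for Tuba4a without untreated library 2, while between 5 and 7 members had an unadjusted p below 0.05. Over all genes, between 0 and 273 were then called, against 1729 with all libraries. The directions held in each of these fits. With all libraries, Tuba4a missed the threshold under quantile normalization (adjusted p = 0.05461), Tuba1b passed it under median-ratio scaling (0.04821), and with no filter on low values only Tuba1a passed (0.04968). For a single gene, an exact permutation of 2 against 2 libraries could not go below 0.333.

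Levels of other cells' genes also differed between the treated and untreated cultures, in a comparison where 13.4% of all genes were called. The 10 neuronal markers summed to 10.8 and 21.0 FPKM in TSA-treated and 1.11 and 1.88 FPKM in untreated Th2 libraries, and only Syp, a synaptic vesicle gene, was called higher among the 7 tested. Syp made up most of the treated sum, with 9.22 and 16.2 FPKM. Map2 and Gap43 reached 2.11 and 2.46 FPKM in treated library 2, and neither was called. Stmn2, Dcx, Elavl4 and Nefm were at 0 in both treated libraries. The 6 B cell markers summed to 17.3 and 43.1 FPKM in treated and 4.47 and 6.53 FPKM in untreated libraries, with 2 called higher. The B libraries had 3.71 and 3.93 FPKM of Tubb2a and 2.96 and 2.52 FPKM of Tubb2b. Myeloid markers went the other way, with 3.40 and 3.68 FPKM in treated and 9.27 and 9.34 FPKM in untreated libraries, and 1 of 7 tested, Adgre1, called lower. Of 6 T cell markers 1 was called higher and 1 lower, and of 6 Th2 markers 2 were called lower and 0 higher. Proliferation markers summed to 601.4 and 465.1 FPKM in treated and 879.6 and 762.1 FPKM in untreated libraries, with 1 of 8, the cyclin Ccna2, called lower. Ribosomal protein genes took 22.5% and 22.9% of the summed FPKM in treated and 17.2% and 18.8% in untreated libraries. The part of these marker genes and of this share in the tubulin differences was not tested. In bulk libraries, fewer cells of a type and less RNA per cell cannot be told apart.

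The promoters of Tubb2a, which rose with TSA, and Tuba1c, which fell, are shown as the 250 bases before the RefSeq start of each gene on GRCm38.p6. Capitals mark CCAAT and GGGCGG on either strand, so ATTGG and CCGCCC are capitalised too. Tubb2a holds 2 GGGCGG, no CCAAT and 1 TATAAA, and Tuba1c holds 1 CCAAT and no GGGCGG.
Tubb2a promoter, chr13:34078009-34078258, minus strand: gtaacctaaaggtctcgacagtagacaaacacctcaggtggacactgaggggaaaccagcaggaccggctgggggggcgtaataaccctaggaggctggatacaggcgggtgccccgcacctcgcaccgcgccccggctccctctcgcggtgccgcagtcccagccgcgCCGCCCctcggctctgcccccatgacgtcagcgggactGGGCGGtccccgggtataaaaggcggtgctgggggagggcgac
Tuba1c promoter, chr15:99029641-99029890, plus strand: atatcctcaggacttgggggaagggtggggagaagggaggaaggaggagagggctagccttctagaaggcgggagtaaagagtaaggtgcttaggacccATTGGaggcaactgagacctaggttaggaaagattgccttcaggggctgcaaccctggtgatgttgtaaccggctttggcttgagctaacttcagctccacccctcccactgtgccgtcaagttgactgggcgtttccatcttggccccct

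Of the 7 members matched in RefSeq, Tuba1a, Tuba1b, Tuba4a, Tubb3 and Tubb5 start further upstream in GENCODE M21, so that their windows lie partly or wholly inside the gene and are not described. The promoters of Tubb2b and Tubb6 were not analysed here. Over the 32851 promoters of this length, 33.8% hold CCAAT, 32.7% GGGCGG and 12.4% TATAAA on either strand. Such matches describe the letters only.

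The comparison of untreated Th2 with CD4 T cells sets cells stimulated and cultured toward a helper type against the cells they were started from. It shares the untreated Th2 libraries with the TSA comparison, so the values are given side by side only. In Th2 cells 7 of 9 members were called, 6 higher and 1 lower. Over all 12367 genes with a value in both kinds of table, 54.9% were called, 16.9% higher and 38.1% lower, with a median log2 difference of -0.28. The 2086 higher and 4709 lower calls became 3442 and 3405 under quantile normalization and 2835 and 3463 under median-ratio scaling, where the median moved to 0.02 and -0.04. All 4 alpha members were higher in Th2 cells, with a median log2 difference of 4.90, and the beta members had a median of -0.13. This beta median is the value of Tubb2b, which had at most 1.84 FPKM in these libraries. The beta sum was higher in untreated Th2 than in CD4 T libraries.

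Tuba1b had 644.0 and 672.8 FPKM in untreated Th2, against 9.39 and 9.62 FPKM in CD4 T libraries. This is 69.3-fold, and the log2 difference was 5.97 (SE 0.11, limma adjusted p = 6.19e-04). Tuba1c had 344.2 and 359.4 FPKM in Th2, against 5.98 and 5.66 FPKM in CD4 T libraries, a log2 difference of 5.69 (limma adjusted p = 5.49e-04). Tuba1a had 312.9 and 319.4 FPKM in Th2, against 17.2 and 17.7 FPKM in CD4 T libraries, a log2 difference of 4.10 (limma adjusted p = 6.24e-04). Tuba1a was thus the highest of the 3 copies in CD4 T cells and the lowest in Th2 cells. The 3 copies together averaged 1326 FPKM in Th2 and 32.8 FPKM in CD4 T cells, with a log2 difference of 5.29 (SE 0.11, limma adjusted p = 7.22e-04).

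Tuba4a, Tubb5 and Tubb6 were also higher in Th2 cells, by less than the Tuba1 genes. Tuba4a had 204.7 FPKM in both untreated Th2, against 73.1 and 72.2 FPKM in CD4 T libraries, which is 2.82-fold (log2 difference 1.48, SE 0.085, limma adjusted p = 0.003185). Tubb5 had 621.8 and 617.6 FPKM in Th2, against 180.3 and 181.1 FPKM in CD4 T libraries, which is 3.43-fold (log2 difference 1.77, SE 0.14, limma adjusted p = 0.0055). Tubb6 had 16.8 and 29.0 FPKM in Th2, against 4.15 and 3.99 FPKM in CD4 T libraries, which is 5.62-fold (log2 difference 2.19, SE 0.39, limma adjusted p = 0.02287). For each of these 3 genes the Th2 libraries lay wholly above the CD4 T libraries. The share of all genes that did so was not computed.

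The remaining beta genes were low in both cells. Tubb2a had 3.67 and 3.69 FPKM in untreated Th2, against 12.6 and 10.9 FPKM in CD4 T libraries, and was the 1 member lower in Th2 cells (log2 difference -1.44, SE 0.30, limma adjusted p = 0.03256). That call was lost without untreated Th2 library 1 or 2, with adjusted p values of 0.1222 and 0.1232, and under quantile normalization and median-ratio scaling, with 0.05654 and 0.05741. Tubb2b had 1.18 and 1.84 FPKM in Th2 and 1.75 and 1.71 FPKM in CD4 T libraries, which overlapped (limma adjusted p = 0.7705). Tubb3 stayed below 1 FPKM in all 4 libraries. Without untreated Th2 library 1 or 2, 3443 or 3188 of all genes were called, against 6795 with both.

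**Figure D4:**
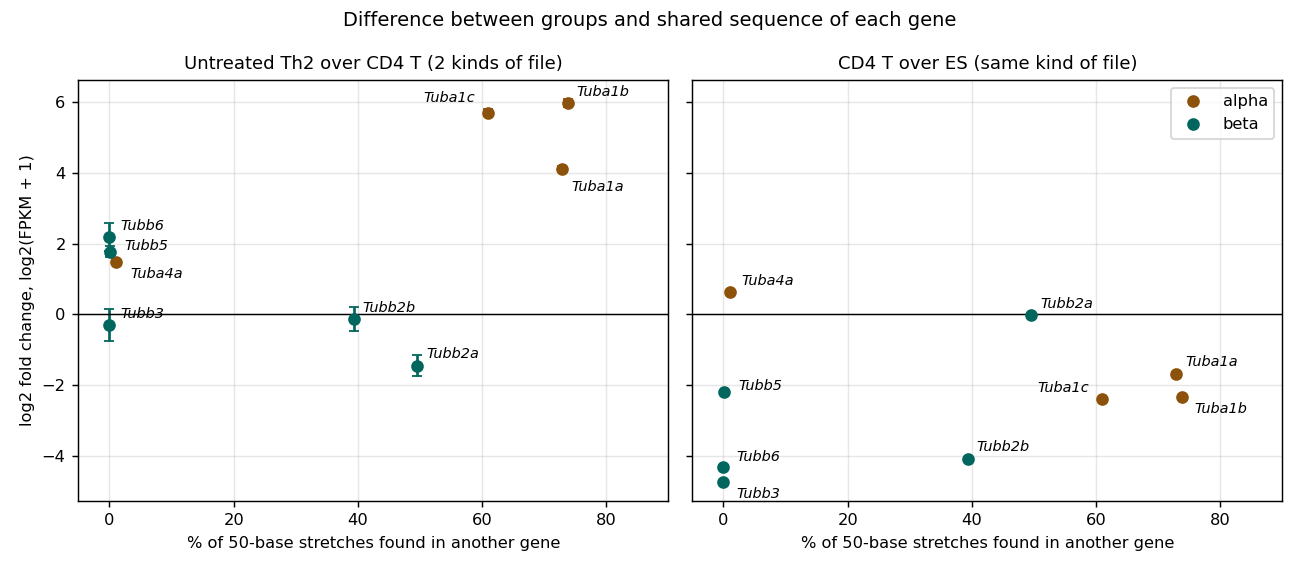
Log2 difference on the log2(FPKM + 1) scale against the percentage of each gene's 50-base transcript stretches that occur in another gene, for untreated Th2 over CD4 T cells (left, with SE bars) and CD4 T over ES cells (right, 1 sample a side, no error). The 3 Tuba1 genes, with 61.0% to 73.8% shared, stand at 4.10 to 5.97 on the left and at -2.39 to -1.67 on the right.

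Because the 2 kinds of table could treat reads of shared sequence differently, all genes were sorted by the stretches they share. Between the group means, the median log2 difference of Th2 from CD4 T cells was -0.32 over 8035 genes that share no stretch and 0.14 over 331 genes that share at least 50%. From ES cells, the medians of Th2 cells were -0.47 and 0.30 over the same genes. Between CD4 T and ES cells, whose tables are of 1 kind, the medians were -0.11 and -0.20. How the authors handled reads that match several genes is not given in the sources used here, and its part in the Tuba1 differences was not tested. The split of reads among Tuba1a, Tuba1b and Tuba1c is uncertain for the same reason.

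Proliferation markers summed to 879.6 and 762.1 FPKM in untreated Th2, against 67.9 and 69.9 FPKM in CD4 T libraries. Of all genes tested, 16.9% were called higher, and so were all 8 of these markers. They include Mki67, with 141.8 and 107.2 FPKM in Th2 and 15.6 and 15.7 FPKM in CD4 T libraries. The part of cell division in the tubulin differences was not tested.

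Against ES cells, untreated Th2 cells were higher in every alpha member and lower in 4 of 5 beta members. That makes 8 of 9 called, against 62.1% of all 12367 genes, 19.0% higher and 43.1% lower, with a median log2 difference of -0.41. The 2355 higher and 5329 lower calls became 3901 and 3960 under quantile normalization and 3233 and 3906 under median-ratio scaling, with medians of -0.002 and -0.083. Tuba1b had 644.0 and 672.8 FPKM in Th2, against 52.1 and 51.2 FPKM in ES libraries (log2 difference 3.65, limma adjusted p = 4.66e-04). The log2 differences of Tuba1c, Tuba1a and Tuba4a were 3.31, 2.43 and 2.10, with limma adjusted p values from 4.10e-04 to 8.71e-04.

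Tubb3 was at 0.09 and 0.15 FPKM in untreated Th2, against 34.5 and 36.1 FPKM in ES libraries, a log2 difference of -5.02 (SE 0.44, limma adjusted p = 0.004503). Tubb3 met the filter of 1 FPKM only with the ES libraries, since outside them it reached that level in TSA-treated library 2 alone. The direction of its difference from ES cells was thus set by entry, here and for CD4 T and B cells below. Its call, counted above, is therefore a description only. Tubb2b had 1.18 and 1.84 FPKM in Th2, against 45.5 and 44.1 FPKM in ES libraries (log2 difference -4.20, limma adjusted p = 0.003938). Tubb6 had 16.8 and 29.0 FPKM in Th2, against 96.9 and 99.8 FPKM in ES libraries (log2 difference -2.11, limma adjusted p = 0.02148). For each of the 3 genes the Th2 libraries lay wholly below the ES libraries. The share of all genes that lay so was not computed. Tubb2a was lower by 1.46 on the log2 scale (limma adjusted p = 0.02825), a call lost under median-ratio scaling (adjusted p = 0.05589) and without Th2 library 1 or 2 (0.1087 and 0.1114).

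Tubb5 was the member that did not pass, with 621.8 and 617.6 FPKM in untreated Th2, against 827.9 and 824.4 FPKM in ES libraries. Its log2 difference was -0.41 (limma adjusted p = 0.08765), it was called lower under quantile normalization at -1.18, and it turned to 0.01 under median-ratio scaling. The neuronal markers summed to 1.11 and 1.88 FPKM in Th2 and 146.2 and 147.1 FPKM in ES libraries, of which Stmn2, a neuronal stathmin, made up most with 105.8 and 105.3 FPKM. Dcx was at 0.01 FPKM in both ES libraries. The 10 feeder fibroblast markers, led by Fn1 at a mean of 363.1 FPKM, summed to 975.3 and 982.2 FPKM in the ES libraries, whose cells were grown on such feeders. The part of feeders, or of cells with neuronal transcripts, in the ES levels of Tubb3, Tubb2b and Tubb6 was not tested.

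CD4 T, B and ES cells have 1 sample each, so their differences were read by size, with no test. A gene passed where the group means differed by 2 or more on the log2 scale and the higher mean reached 5 FPKM. In CD4 T cells 6 members were lower than in ES cells by this rule and none higher, against 22.6% of all genes, of which 11.9% were lower. They were Tubb3 at -4.72, Tubb6 at -4.29, Tubb2b at -4.07, Tuba1c at -2.39, Tuba1b at -2.33 and Tubb5 at -2.19. Tuba1a stood at -1.67, Tuba4a at 0.62, and Tubb2a at -0.02, which turned to 0.03 under median-ratio scaling. Tuba4a had 73.1 and 72.2 FPKM in CD4 T, against 46.6 and 47.3 FPKM in ES libraries.

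In B cells 7 members were lower than in ES cells, against 22.8% of all genes, of which 13.4% were lower. Tubb6 had 2.19 and 1.90 FPKM in B, against 96.9 and 99.8 FPKM in ES libraries, a log2 difference of -5.03. Tubb3 stood at -4.92, Tubb2b at -3.62, Tuba1a at -2.83, Tuba1b at -2.79, Tuba1c at -2.66 and Tubb5 at -2.60. Tubb2a at -1.42 and Tuba4a at -0.18 did not pass.

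Between CD4 T and B cells no member passed the rule, and 4.27% of all genes did, 2.56% higher and 1.70% lower in CD4 T cells. Tubb2a had 12.6 and 10.9 FPKM in CD4 T, against 3.71 and 3.93 FPKM in B libraries, a log2 difference of 1.40. Tuba1a had 17.2 and 17.7 FPKM in CD4 T, against 6.92 and 7.63 FPKM in B libraries, a log2 difference of 1.16. Tuba4a, Tubb6, Tuba1b, Tubb5, Tuba1c and Tubb3 were higher in CD4 T cells by 0.80, 0.74, 0.46, 0.42, 0.28 and 0.20, and Tubb2b stood at -0.45.

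The other tubulin genes include Tubb4b, a beta isotype of many tissues, the gamma tubulins that nucleate microtubules, and the delta and epsilon tubulins of the centriole. For this list and those below, the share called over all genes was 13.4% between TSA-treated and untreated Th2 cells. It was 54.9% for untreated Th2 against CD4 T cells and 62.1% against ES cells. The counts are descriptions, and no list was tested as a set. In TSA-treated Th2 cells 1 of 9 tested was called, Tube1, with 75.5 and 61.9 FPKM in treated and 136.1 and 135.4 FPKM in untreated libraries (log2 change -0.98, limma adjusted p = 0.04063). The list's median log2 change was -0.36. In untreated Th2 against CD4 T cells 5 of 8 tested were higher and 1 lower, with a median of 1.16. Tube1 had 136.1 and 135.4 FPKM in Th2, against 1.65 and 1.99 FPKM in CD4 T libraries (log2 difference 5.60, limma adjusted p = 0.001071). Tubb4b had 242.5 and 247.1 FPKM in Th2, against 28.0 and 27.7 FPKM in CD4 T libraries (log2 difference 3.09, limma adjusted p = 0.001876). Tubg2, a gamma tubulin, was higher by 1.57, and Tuba3a, an alpha isotype best known from testis, lower at -2.15.

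New tubulin chains are handed by prefoldin to the CCT chaperonin and then to the tubulin cofactors, which assemble the dimer. Of the 14 CCT and prefoldin genes, 2 were called higher in TSA-treated Th2 cells and none lower, with a median log2 change of -0.18. They were the prefoldin subunits Pfdn5 at 0.63 (limma adjusted p = 0.0495) and Pfdn6 at 0.59 (limma adjusted p = 0.0324). In untreated Th2 against CD4 T cells 6 of 14 were higher and none lower, with a median of 0.81. The largest were Tcp1 at 1.69, Cct6a at 1.46, Pfdn1 at 1.34 and Pfdn6 at 1.20. In untreated Th2 against ES cells 11 were lower and 1 higher, with a median of -1.09, led by Cct3 at -1.61 and Pfdn2 at -1.41.

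Of the 7 cofactor genes none was called by limma between TSA-treated and untreated Th2 cells, none had an unadjusted p below 0.05, and their median log2 change was -0.03. Against CD4 T cells their median in untreated Th2 cells was -0.01. In untreated Th2 cells Tbcb was higher than in CD4 T cells by 0.91, and Tbce and Tbcel stood at -1.41 and -1.04. Ttc5, whose product reads the start of tubulin chains, had 21.5 and 18.1 FPKM in TSA-treated and 19.7 and 16.5 FPKM in untreated Th2 libraries, which overlapped (limma adjusted p = 0.5959). It was lower in untreated Th2 than in CD4 T cells, with 19.7 and 16.5 FPKM in Th2 and 46.2 FPKM in both CD4 T libraries (log2 difference -1.31, limma adjusted p = 0.0134).

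Enzymes that modify tubulin add or remove tyrosine, glutamate, glycine and acetyl groups. In TSA-treated Th2 cells 2 of 15 were called, Vash1, part of a tyrosine-removing enzyme, at 0.73 and the tyrosine ligase gene Ttl at -0.40, both at group means of at most 2.25 FPKM. The median log2 change of the 15 was 0.18. Hdac6, named because TSA inhibits its product, had 12.1 and 13.4 FPKM in TSA-treated and 10.6 and 10.1 FPKM in untreated libraries. Its log2 change of 0.28 did not pass (limma adjusted p = 0.152). In untreated Th2 against CD4 T cells 2 of 15 were higher and 3 lower, among them Hdac6 at 0.65, the glycylase gene Ttll3 at -1.68 and the deglutamylase genes Agtpbp1 at -0.94 and Agbl3 at -0.85.

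Stathmins and some kinesins take microtubules apart, and none of the 8 such genes tested was called by limma between TSA-treated and untreated Th2 cells. Of these, 1 had an unadjusted p below 0.05, and the median log2 change was -0.06. Against CD4 T cells 2 were higher in untreated Th2 cells and 2 lower, with a median of 0.10. Stmn1, a stathmin that binds free dimers, had 453.8 and 440.0 FPKM in untreated Th2, against 9.92 and 10.2 FPKM in CD4 T libraries (log2 difference 5.34, limma adjusted p = 0.002381). The depolymerising kinesin Kif2c was higher in Th2 by 2.81, and the severing genes Spast and Katna1 stood at -0.71 and -0.68. Against ES cells Stmn1 was higher in untreated Th2 cells by 3.96 and Stmn2 lower at -6.69. Stmn2 met the filter only through the ES libraries, so its direction was set by entry.

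Among the 15 microtubule-binding genes tested, 3 were called higher in TSA-treated Th2 cells, and the median log2 change was 0.11. Map4, which binds and stabilises microtubules in non-neuronal cells, had 78.8 and 68.4 FPKM in treated, against 41.5 and 37.8 FPKM in untreated libraries (log2 change 0.87, limma adjusted p = 0.03933). Map1a and Map1b, known from neurons, passed with means of 0.84 and 0.77 FPKM in treated and 0.02 and 0.03 FPKM in untreated cultures. Both are near the floor here and met the filter only with the ES libraries. In untreated Th2 against CD4 T cells 3 were higher, the spindle genes Tpx2 at 3.48 and Ckap5 at 1.48 and the end-binding gene Mapre2 at 1.27. Against ES cells 6 were lower in untreated Th2 cells and 1 higher, led by Map1b at -3.85 and Mapt, the tau gene, at -2.98. Map1b, Mapt and Map1a, all among the lower ones, met the filter only with the ES libraries. Their direction in this comparison was thus set by entry.

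Of the 7 genes tested of the gamma-tubulin ring complex, which starts new microtubules, none was called by limma between TSA-treated and untreated Th2 cells, 3 had an unadjusted p below 0.05, and the median log2 change was -0.25. In untreated Th2 against CD4 T cells 3 were higher and 3 lower, with a median of -0.02. Nedd1, which brings the complex to the spindle, was higher by 1.44, and the ring components Tubgcp5, Tubgcp4 and Tubgcp3 stood at -1.34, -1.07 and -0.94.

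Patterns over the 5 group means were compared by the root mean square difference of log2(FPKM + 1) after each gene was centred on its own mean. Tuba1b and Tuba1c were nearest to each other, at 0.193, followed for Tuba1b by Stmn1 at 0.351. The gene nearest to Tuba1a was Hmgb2, a chromatin protein gene, at 0.226, and that nearest to Tuba4a was Oxct1, of ketone body use, at 0.131. Tubb5 lay nearest to Mcm7, part of the replicative helicase, at 0.114. Tubb2a lay nearest to Syt11 at 0.226, Tubb2b to Mcam at 0.22, Tubb3 to Gfpt2 at 0.115 and Tubb6 to Hbegf at 0.248. These are descriptions over 5 group means that share the 2 kinds of table.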

How the data were processed

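RNA-seq libraries were made from total RNA with a TruSeq kit, per the labels' protocols. The deposited files hold FPKM values that the authors computed per transcript row. The submitters' processing notes name the mm10 build and the tools Cufflinks 2.0.2, TopHat 1.3.2 and Bowtie 0.12.8. Not given in the sources used here are their settings, the use of strand, the handling of reads that match several places and the read numbers. The depth is therefore unknown, and values carry no counting intervals.

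Each table had 21035 rows, collapsed to 19025 genes by the highest row, after 315 rows without a symbol and 30 with a date as symbol were looked up in a RefSeq table of GRCm38.p6. Groups came from the sample titles. Limma 3.58.1 in R 4.3.3 was run on log2(FPKM + 1) with a mean-dependent prior over 7 samples: 4 Th2 libraries and the means of the CD4 T, B and ES pairs. The fit has 2 residual degrees of freedom, and single samples are assumed to vary like the Th2 groups. Genes with at least 1 FPKM in 2 or more libraries entered a two-sided test, with Benjamini-Hochberg adjustment over all of them and calls at an adjusted p of 0.05. Genes at 0 in all tables of 1 kind were left out of comparisons between the kinds. Shared 50-base stretches and coding identity came from GENCODE M21. Some sequences of the members are not reported here.

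The members, gene lists and tests were chosen with earlier results of these data known. Named beside the members are up to 4 called genes of each list by size of change and the genes of nearest pattern. Alternatives were another pseudocount, no filter, sums or means of rows, quantile and median-ratio scaling, a fit without the mean-dependent prior, 10 separate libraries, the experiment number as a block, each library left out and, chosen after seeing the data, near-identical copies summed.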

Additional observations from a re-analysis of the deposited data

How the results depend on the processing

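Between TSA-treated and untreated Th2 cells, 5 members and 1729 genes were called. With no filter these were 1 and 771, with 10 separate libraries and no replicate block 8 and 6774, and with the replicate block added to that fit 8 and 6927. In the last 2 fits the near-identical CD4 T, B and ES pairs count as replicates. Leaving out 1 library at a time gave 0 members throughout and 0 to 273 genes, with 2677 to 4151 genes at an unadjusted p below 0.05, against 4762. The experiment numbers of the Th2 libraries are a number only: the labels do not say what an experiment shares, and 2 pairs are too few to show it, although deviations of same-numbered libraries correlated at 0.65 across 7761 genes. With the replicate block on the 4 Th2 libraries alone, 4 members and 2342 genes were called, and Tuba1c was at an adjusted p of 0.05522.

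Leaving out 1 library at a time gave 3188 to 6790 genes and 6 to 7 members for Th2 against CD4 T cells, and 4686 to 7701 genes and 7 to 8 members for Th2 against ES cells. Signs turned in 10 cases, all for log2 differences that were neither called nor past the size rule. For Th2 against CD4 T cells these were Tubb2b at 0.5183 with quantile normalization, 0.0902 with median-ratio scaling and -0.3246 to 0.0570 leaving out 1 library, and Tubb3 at 0.11 with quantile normalization. Against ES cells they were Tubb5 in Th2 at 0.0068 and Tuba4a in B at 0.0286 with median-ratio scaling, and Tubb2a in CD4 T cells at 0.0349 with median-ratio scaling and, leaving out 1 library, at -0.1137 to 0.0748 (0.0057 without ES library 2). Tubb3 in CD4 T against B cells turned to -0.0344 with quantile normalization. The cause was not tested. Of the other alternatives for single genes, 527 kept direction and either the call or, where there was no test, a value within the replicate spread. Another 62 moved a value with no test by more than the replicate spread, 11 gained and 35 lost a call. These counts include the sums of near-identical copies, set in place of each copy. FPKM without read numbers gives no depth limit for low genes such as Tubb3.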
